A study of Mus musculus with 8 samples.

Results

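The genes described here are 10 adipogenic regulators and effectors of the peroxisome proliferator-activated receptor (PPAR) and CCAAT/enhancer-binding protein (C/EBP) network, chosen by symbol: Pparg, Ppara, Ppard, Cebpa, Cebpb, Cebpd, Adipor1, Adipor2, Fabp4 and Lpl. All 10 were found among the 19938 genes measured, each through 1 probe set that the platform annotation assigns to that symbol alone. In that order the probe sets are 10540897, 10425987, 10443332, 10552140, 10478890, 10433885, 10350015, 10547386, 10497265 and 10572130. They were measured on 8 whole-transcript arrays in hepatic stellate cells, which are liver pericytes that store vitamin A. The 4 reverted arrays hold cells of male Balb/c mice that had received 4 injections of the hepatotoxin carbon tetrachloride (CCl4) (2 a week, each of 0.5 µl per g body weight), followed by a rest of 45 days. The 4 quiescent arrays hold cells of normal male Balb/c mice, for which the labels name no injection. The labels give an age of 18 weeks for both groups in one statement and of 16 weeks for the reverted mice in another. Per the labels' protocols, both groups' cells were purified by density centrifugation, then by a flow sort for retinoid autofluorescence, and lysed without culture. The labels do not say whether an array holds 1 mouse or a pool, so the p-values rest on array-to-array spread that may be technical in part or in whole.

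PPARs are nuclear receptors for fatty acids and their derivatives that bind DNA together with a retinoid X receptor, and C/EBPs are leucine zipper transcription factors. In the differentiation of mouse fat cells, C/EBP-beta and C/EBP-delta act early and induce C/EBP-alpha and PPAR-gamma, which maintain each other and switch on lipid genes such as Fabp4 and Lpl. Quiescent stellate cells hold lipid droplets, as fat cells do, and in culture the loss of PPAR-gamma activity accompanies their conversion to myofibroblasts. The comparison of reverted with quiescent cells asks whether this program differs after a passed injury.

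No call was made for any of the 10 genes. In limma, with Benjamini-Hochberg adjustment over all genes, 0 of the 10 passed an adjusted p of 0.05, against 0.712% of all 19938 genes (0.527% higher and 0.186% lower in reverted cells). At an unadjusted p under 0.05 there were 2 of the 10, Lpl and Adipor2, against 16.0% of all genes. The lipase gene Lpl and the adiponectin receptor gene Adipor2 had the smallest p values, with log2 changes (reverted minus quiescent) of 0.23 (SE 0.07, adjusted p = 0.166) and 0.18 (SE 0.05, adjusted p = 0.17). The mean in reverted cells was higher for 7 of the 10 and lower for 3, and their median log2 change was 0.05, against -0.01 over all genes. The 95% intervals of limma, which are not adjusted for the number of genes, lay between 0.805-fold and 1.33-fold (reverted over quiescent) for all 10, so a larger difference lay outside the interval of each gene on this scale. In 1 of the 10, Adipor2, the 2 groups did not overlap, against 8.73% of all genes (4.64% with reverted higher and 4.09% with reverted lower).

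**Figure D1:**
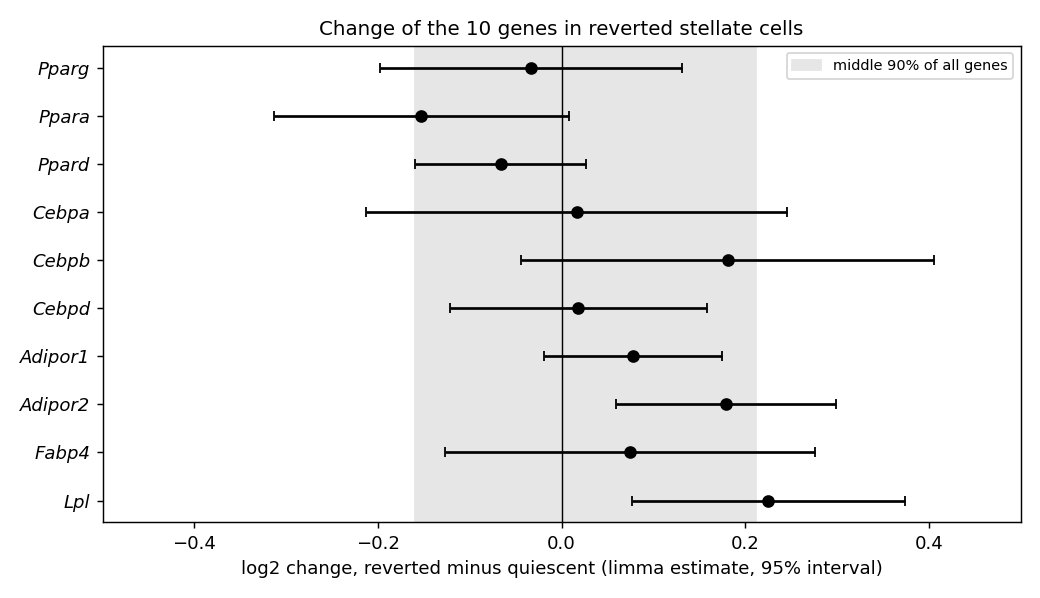
Log2 change (reverted minus quiescent) of the 10 genes on the horizontal axis, with points for the limma estimates and bars for their 95% intervals. The grey band holds the middle 90% of all genes, from -0.16 to 0.21, and only Lpl at 0.23 lies outside it.

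The promoter table of RefSeq (GRCm38.p6) holds windows from 250 bases before to 50 bases after a gene start for 7 of the 10 genes, 10 windows in all. Cebpd, Fabp4 and Lpl have no entry in it. The 3 windows printed here belong to genes that the results turn on. Pparg is the master regulator of the fat cell, and the most downstream of its 3 listed starts is shown, where transcription of the isoform Pparg2, typical of mouse fat cells, begins. Cebpb is the member with the largest SD among quiescent arrays (0.229). Adipor2 is the member whose groups did not overlap. Each sequence runs 5′ to 3′ on the strand of the gene, and capitals mark matches, on either strand, to a loose C/EBP pattern (TTNNGNAA) or to the core of the cyclic AMP response element (TGACG).
Pparg, downstream start, chr6:115421816-115422115, plus strand: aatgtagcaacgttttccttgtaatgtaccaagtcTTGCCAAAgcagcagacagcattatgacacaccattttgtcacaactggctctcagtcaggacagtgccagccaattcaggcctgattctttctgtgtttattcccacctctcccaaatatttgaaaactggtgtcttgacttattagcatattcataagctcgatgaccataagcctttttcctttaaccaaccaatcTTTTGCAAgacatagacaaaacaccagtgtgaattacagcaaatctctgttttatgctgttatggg
Cebpb, chr2:167688665-167688964, plus strand: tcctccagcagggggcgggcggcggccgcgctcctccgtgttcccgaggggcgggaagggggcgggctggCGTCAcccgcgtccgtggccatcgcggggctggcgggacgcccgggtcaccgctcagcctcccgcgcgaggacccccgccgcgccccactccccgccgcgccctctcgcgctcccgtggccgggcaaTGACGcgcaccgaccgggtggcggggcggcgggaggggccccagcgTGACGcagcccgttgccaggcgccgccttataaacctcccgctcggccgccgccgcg
Adipor2, chr6:119388685-119388984, minus strand: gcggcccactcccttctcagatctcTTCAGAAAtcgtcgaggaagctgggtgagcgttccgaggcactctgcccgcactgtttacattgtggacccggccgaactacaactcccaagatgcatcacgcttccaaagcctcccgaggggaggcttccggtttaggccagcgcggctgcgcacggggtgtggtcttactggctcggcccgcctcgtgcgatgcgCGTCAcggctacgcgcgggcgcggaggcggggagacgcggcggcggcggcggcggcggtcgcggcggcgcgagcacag

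The Pparg window holds 2 matches to the C/EBP pattern, beginning at -215 and -16 relative to the start, and the Adipor2 window holds 1, beginning at -225. Matches to the C/EBP pattern stand in 2 of the 10 windows, against 40.7% of all 32851 windows of this length. The Cebpb window holds 3 matches to TGACG, at -180, -53 and -7, and the Adipor2 window holds 1, at -28. CREB, the factor that binds such sites, is known to act on Cebpb in early fat cell differentiation. TGACG matches stand in 5 of the 10 windows, against 20.8% of all windows. The hexamer that PPARs recognise in pairs (AGGTCA) stands in 2 of the 10, both upstream starts of Pparg, against 16.3% of all windows, and a CCAAT box (CCAAT, either strand) in 4 of the 10, against 37.4%. The C/EBP and TGACG matches do not overlap in the windows shown. The 10 windows come from 7 genes, with 3 for Pparg and 2 for Adipor1. Their GC content ran from 40.3% to 80.7%, and the shares over all windows were not matched for it. All of these are matches of letters and not measured sites.

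The 10 genes spread over most of the array scale. By the mean log2 value over the 8 arrays, Fabp4 lay at percentile 20.6 and Pparg at percentile 30 of all genes. Cebpa (59.3), Ppara (62.2) and Adipor2 (76.7) held the middle, and Cebpb (89.5), Adipor1 (92.2), Ppard (92.5), Lpl (94.5) and Cebpd (95.1) stood near the top. These are positions of probe sets and not amounts of mRNA, since probe sets differ in how strongly they bind. No background level was used, so a difference in Fabp4 or Pparg may be understated on this compressed scale.

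**Figure D2:**
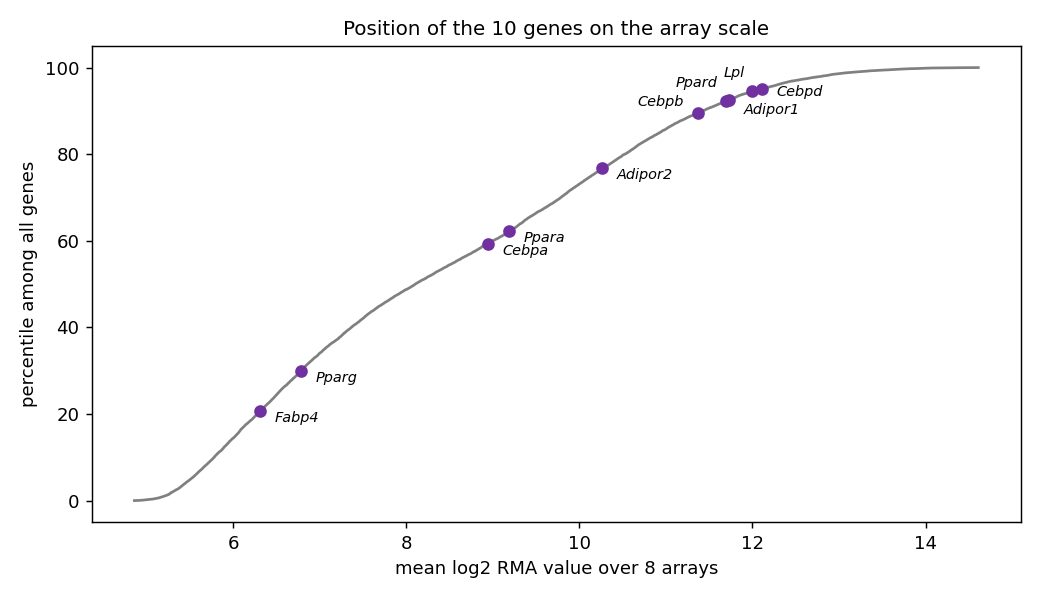
Mean log2 value over the 8 arrays on the horizontal axis and percentile among the 19938 genes on the vertical axis, with the grey curve for all genes and points for the 10 genes. Fabp4 (percentile 20.6) and Pparg (30) lie on the lower part of the curve, and the 5 highest genes lie between 89.5 and 95.1.

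Among the nuclear receptors, PPAR-gamma, the receptor that drives fat cell differentiation and is the target of glitazone drugs, was measured at log2 values of 6.95, 6.80, 6.62 and 6.71 for Pparg on reverted arrays 1 to 4. On quiescent arrays 1 to 4 Pparg stood at 6.84, 6.89, 6.80 and 6.69. Both the highest and the lowest value belonged to reverted arrays, and the quiescent range lay within the reverted one. The log2 change was -0.03 (SE 0.07, 95% interval -0.20 to 0.13, adjusted p = 0.839). It stayed below 0 in 17 of 20 alternative settings, and was lowest, -0.13, with the mean of hepatocyte markers as a covariate. Some of these settings, such as the replicate block and the permutation test, cannot move the estimate. After quantile normalization the change was 0.01, and without reverted array 3 it was 0.02, so Pparg has no settled direction in these arrays. Each array gives a single value for Pparg, so transcripts from its 3 listed starts are not told apart.

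Ppara encodes the receptor that drives fatty acid oxidation in liver. It had log2 values of 9.22, 9.04, 9.22 and 8.99 in reverted cells, against 9.17, 9.20, 9.39 and 9.31 in quiescent cells. The 2 highest arrays were quiescent and the 2 lowest reverted, with overlap between 9.17 and 9.22. Ppara had a log2 change of -0.15 (SE 0.07, 95% interval -0.31 to 0.01, adjusted p = 0.332), and it stayed below 0 under all 21 alternative settings run for it. As for Pparg, some of these settings cannot move the estimate. Ppara is abundant in hepatocytes, and the mean log2 value of 15 hepatocyte marker genes ran from 8.79 to 9.29 in reverted and from 8.07 to 9.09 in quiescent arrays. In bulk samples fewer cells of a type and less RNA per cell cannot be told apart. With that mean as a covariate the change of Ppara was -0.16 (SE 0.10, adjusted p = 0.386). All 15 markers had a higher mean in reverted cells, so this covariate runs partly with the group. The part of hepatocytes in the value of Ppara was not tested.

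Ppard encodes the broadly expressed PPAR-delta, another regulator of fatty acid use. It had log2 values of 11.63, 11.75, 11.73 and 11.66 in reverted cells, against 11.72, 11.79, 11.76 and 11.77 in quiescent cells. Only reverted arrays 1 and 4 lay below all quiescent arrays. The log2 change of Ppard was -0.07 (SE 0.04, 95% interval -0.16 to 0.03, adjusted p = 0.446). All 3 PPAR genes thus had lower means in reverted cells, as did 10685 of all 19938 genes, and none of the 3 passed the test. Pparg among them had no settled direction.

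**Figure D3:**
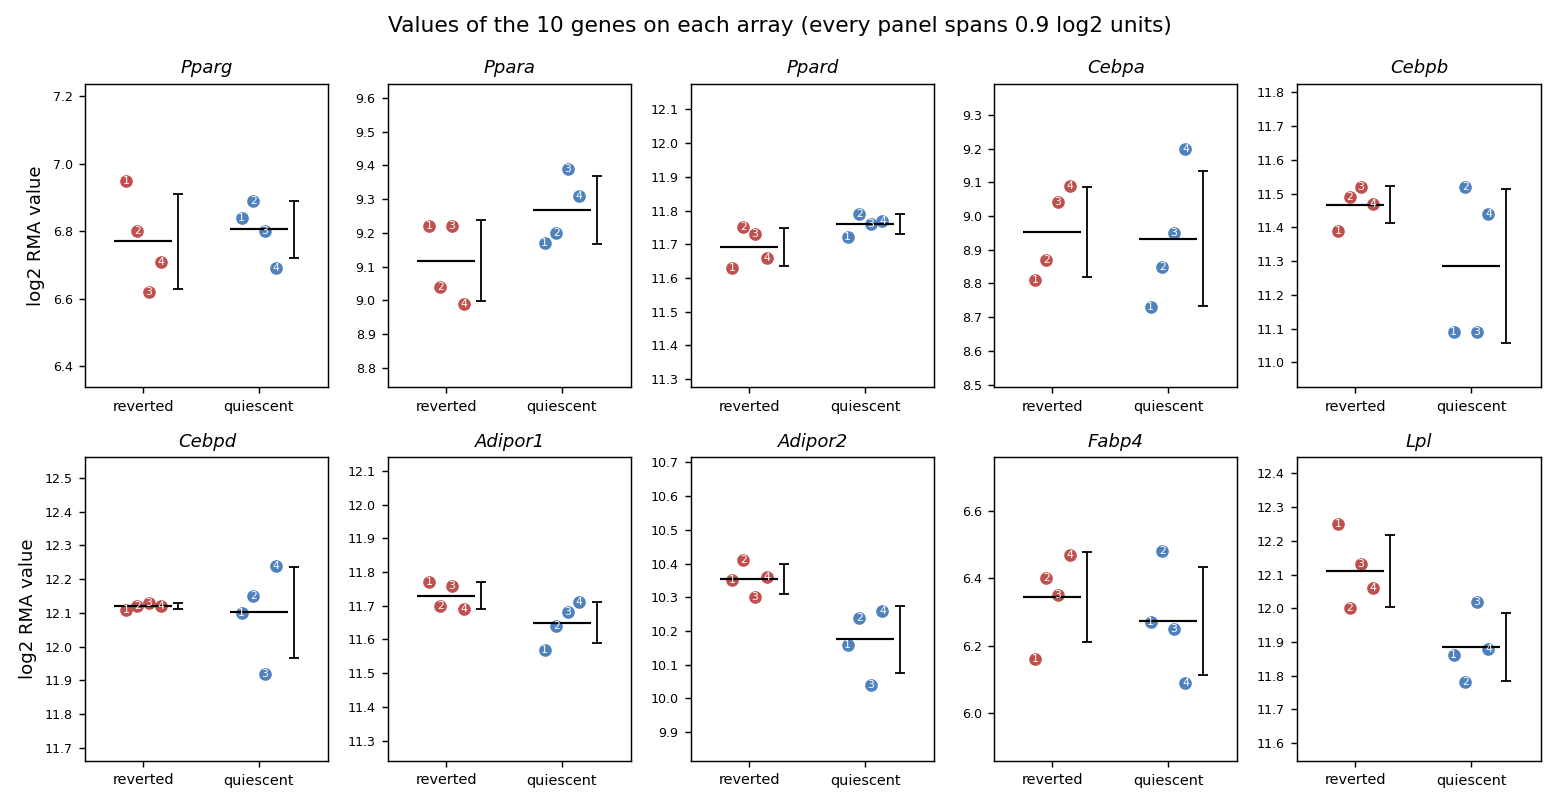
Log2 RMA value of the 10 genes on the vertical axes, 1 panel a gene, with reverted arrays left and quiescent arrays right. Points are single arrays with their replicate number, lines are group means and bars are 1 SD (n = 4), and every panel spans 0.9 log2 units. The groups are apart for Adipor2 (lowest reverted 10.30, highest quiescent 10.26) and overlap in the other 9 panels.

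Among the C/EBP factors, Cebpa encodes C/EBP-alpha, which is needed for fat cells and for hepatocyte metabolism. It had log2 values of 8.81, 8.87, 9.04 and 9.09 in reverted cells, against 8.73, 8.85, 8.95 and 9.20 in quiescent cells. The highest and the lowest array were both quiescent. Cebpa had a log2 change of 0.02 (SE 0.10, 95% interval -0.21 to 0.25, adjusted p = 0.949), and it was -0.04 after quantile normalization. With the mean of hepatocyte markers as a covariate the change was 0.12 (SE 0.13, adjusted p = 0.627). The part of hepatocytes in the value of Cebpa was not tested.

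Cebpb encodes C/EBP-beta, an early factor of fat cell differentiation that also takes part in the acute response of liver. It had log2 values of 11.39, 11.49, 11.52 and 11.47 in reverted cells. In quiescent cells the values were 11.09, 11.52, 11.09 and 11.44. Quiescent arrays 1 and 3 stood apart from the other 6 arrays, which lay between 11.39 and 11.52. The log2 change of Cebpb was 0.18 (SE 0.10, 95% interval -0.04 to 0.41, adjusted p = 0.397), and leaving out single arrays gave 0.12 to 0.26.

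Cebpd encodes C/EBP-delta, the partner of C/EBP-beta in the early phase. Its reverted arrays had log2 values of 12.11, 12.12, 12.13 and 12.12, against 12.10, 12.15, 11.92 and 12.24 in quiescent arrays. The reverted arrays were nearly identical and lay inside the quiescent range, with the lowest value on quiescent array 3. The log2 change of Cebpd was 0.02 (SE 0.06, 95% interval -0.12 to 0.16, adjusted p = 0.902), and without quiescent array 3 it was -0.04. Genes of the immediate early response to cell isolation and stress, among which Cebpb and Cebpd are often counted, had their lowest mean log2 value on the same array, 12.26, against 12.34 to 12.54 on the other quiescent arrays and 12.41 to 12.55 on the reverted arrays. With that mean as a covariate the changes were 0.15 for Cebpb (adjusted p = 0.662) and -0.04 for Cebpd (adjusted p = 0.792). On quiescent array 1, where Cebpb stood as low (11.09) as on array 3, the immediate early mean was 12.47. The part of this response in the values of Cebpb and Cebpd was not tested.

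Adipor1 and Adipor2 encode the receptors of adiponectin, a hormone of fat tissue that signals through AMP-activated protein kinase and PPAR-alpha and restrains fibrosis in mouse liver. Adipor2 had log2 values of 10.35, 10.41, 10.30 and 10.36 in reverted cells, against 10.16, 10.24, 10.04 and 10.26 in quiescent cells. Every reverted array lay above every quiescent array, although the gap between 10.30 and 10.26 was close to the SD of the reverted arrays (0.042) and below that of the quiescent arrays (0.098). Adipor2 had a log2 change of 0.18 (1.13-fold, 95% interval 0.06 to 0.30 on the log2 scale, adjusted p = 0.17). An exact permutation test of Adipor2 alone gave p = 0.0286 (2-sided, not adjusted for the number of genes), which is the smallest p that 4 against 4 arrays allow. The change kept its direction under all 21 alternative settings, from 0.13 to 0.21, with adjusted p from 0.0973 to 0.419. Some of these settings, such as the level filters, the replicate block and the permutation test, cannot move the estimate.

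Adipor1 had log2 values of 11.77, 11.70, 11.76 and 11.69 in reverted cells, against 11.57, 11.64, 11.68 and 11.71 in quiescent cells. Reverted arrays 1 and 3 lay above all quiescent arrays and the others just below quiescent array 4. Adipor1 had a log2 change of 0.08 (SE 0.04, 95% interval -0.02 to 0.17, adjusted p = 0.4).

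Fabp4 and Lpl are effectors that fat cells switch on under PPAR-gamma. Lpl encodes lipoprotein lipase, the secreted enzyme that frees fatty acids from lipoproteins. It had log2 values of 12.25, 12.00, 12.13 and 12.06 in reverted cells, against 11.86, 11.78, 12.02 and 11.88 in quiescent cells. Only quiescent array 3 reached into the reverted range, by 0.02 log2 units. The log2 change of Lpl was 0.23 (1.17-fold, SE 0.07, 95% interval 0.08 to 0.37, adjusted p = 0.166), with an exact permutation p of 0.0571 for the gene alone. Leaving out single arrays gave changes of 0.18 to 0.27 with adjusted p from 0.121 to 0.359, and the hepatocyte covariate gave 0.21 (adjusted p = 0.239).

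Fabp4 encodes a cytosolic fatty acid binding protein of fat cells that capillary endothelium and macrophages also make. It had log2 values of 6.16, 6.40, 6.35 and 6.47 in reverted cells, against 6.27, 6.48, 6.25 and 6.09 in quiescent cells. The reverted range, 0.31 log2 units wide, lay wholly within the quiescent one. Fabp4 had a log2 change of 0.07 (SE 0.09, 95% interval -0.13 to 0.28, adjusted p = 0.692). It was 0.01 without quiescent array 4 and 0.14 without quiescent array 2, and with the hepatocyte covariate it was -0.03. The mean log2 value of 15 endothelial markers ran from 8.45 to 8.87 in reverted and from 8.30 to 8.73 in quiescent arrays, with 0 called. That of 14 macrophage markers ran from 6.81 to 6.91 in reverted and from 6.78 to 6.89 in quiescent arrays, also with 0 called. The smallest p values in these lists were those of Clec4g (0.50, adjusted p = 0.063) and Lyz2 (0.59, adjusted p = 0.129). In both genes all reverted arrays lay above all quiescent arrays, as in 4.64% of all genes. A lower mean in reverted cells was found for 5 of the 15 endothelial and 9 of the 14 macrophage markers. The mean of 8 fat cell markers ran from 7.38 to 7.50 in reverted and from 7.32 to 7.46 in quiescent arrays, with 0 called. Their part in the value of Fabp4 was not tested.

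Across the 8 arrays, 45 pairs of the 10 genes were correlated, and none passed an adjustment over the 45 pairs. Pparg and Cebpa ran against each other (Pearson r = -0.80, exact permutation p = 0.0193, adjusted 0.306, Spearman rho = -0.86, exact permutation p = 0.0107, adjusted 0.482). Without the 2 arrays farthest from the median of Pparg r was -0.89, and with group means removed it was -0.80. Adipor1 and Lpl had a positive correlation (r = 0.77, exact permutation p = 0.0233, adjusted 0.306, rho = 0.76, exact permutation p = 0.0368, adjusted 0.623). Without the 2 arrays farthest from the median of Adipor1 r was 0.70, and with group means removed it was 0.55. For Cebpb and Adipor2 r was 0.81 (exact permutation p = 0.0242, adjusted 0.306) and rho 0.45 (exact permutation p = 0.267, adjusted 0.854). Without the 2 arrays farthest from the median of Cebpb, quiescent arrays 1 and 3, r was -0.25, so the relation rests on them; over all 8 arrays with group means removed it was 0.75. Cebpb and Cebpd had r = 0.69 (exact permutation p = 0.036, adjusted 0.306) and rho = 0.74 (exact permutation p = 0.0458, adjusted 0.623). Without the same 2 arrays r was -0.08, and over all 8 with group means removed it was 0.74. Ppard and Lpl had r = -0.74 (exact permutation p = 0.0371, adjusted 0.306) and rho = -0.69 (exact permutation p = 0.0694, adjusted 0.623). Without the 2 arrays farthest from the median of Ppard r was -0.47, and with group means removed it was -0.51. Ppara and Adipor2 had r = -0.73 (exact permutation p = 0.0408, adjusted 0.306) and rho = -0.60 (exact permutation p = 0.132, adjusted 0.85). With group means removed their r was -0.49.

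For each member the 2 genes with the most similar profile over the 8 arrays were looked up among named genes above the median level, 9660 or 9661 genes a member. These values are the highest of many comparisons over 8 arrays that share the group difference, and they are given as a description. Lpl was most like Crtap (Pearson r = 0.988, Spearman rho = 0.976), which encodes a subunit of the collagen prolyl 3-hydroxylase complex, and Ctnnbip1 (r = 0.983, rho = 0.952), an inhibitor of beta-catenin. Adipor2 was most like the ephrin receptor gene Epha2 (r = 0.979, rho = 0.976) and the UDP-galactose transporter gene Slc35a2 (r = 0.966, rho = 0.929). Adipor1 was most like the peroxisomal import receptor gene Pex5 (r = 0.982, rho = 0.976) and the kinase gene Irak1 (r = 0.977, rho = 0.952).

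The profile of Ppara was most like those of Snx30 (r = 0.985, rho = 0.952) and Cit (r = 0.983, rho = 0.929), that of Ppard like Nt5dc2 (r = 0.947, rho = 0.976) and Mob3b (r = 0.916, rho = 0.905), and that of Pparg like Tnfrsf13c (r = 0.957, rho = 0.952) and Kcp (r = 0.951, rho = 0.929). Cebpa was most like the junction and myosin genes Afdn (r = 0.959, rho = 0.929) and Myh9 (r = 0.949, rho = 0.952). Cebpb was most like Lnx2 (r = 0.962, rho = 0.881) and Hspa12a (r = 0.956, rho = 0.833), and Fabp4 like Pptc7 (r = 0.928, rho = 0.976) and Czib (r = 0.911, rho = 0.905). For Cebpd the genes were Fbrs (r = 0.962) and Frmd8 (r = 0.951, rho = 0.929), and the rank correlation with Fbrs was only 0.595. None of these 20 genes passed the test between groups.

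Genes around the 10 members were counted in 7 lists, which together had 0 genes called in limma, against 0.712% of all genes. Of 31 measured other C/EBP and adipogenic transcription factors, 0 rose and 0 fell, with 13 higher and 18 lower means and a median log2 change of -0.02, against -0.01 for all genes. The smallest p values were those of Id2, an inhibitor of basic helix-loop-helix factors (-0.32, adjusted p = 0.162), Gata3, a repressor of fat cell differentiation in mice (0.12, adjusted p = 0.281), and Ebf1 (0.15, adjusted p = 0.286). At an unadjusted p under 0.05 there were 4 of the 31, against 16.0% of all genes. Of 17 measured PPAR partners and coregulators, 0 were called and 2 had an unadjusted p under 0.05, with 12 higher means and a median of 0.03. The coactivator gene Ncoa3 (0.17, adjusted p = 0.237), the Mediator subunit gene Med1 (0.09, adjusted p = 0.305) and the corepressor-associated deacetylase gene Hdac3 (0.10, adjusted p = 0.376) led this list.

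Of 27 measured target genes of PPAR-gamma in fat cells, 0 were called and 5 had an unadjusted p under 0.05, against 16.0% of all genes. Their means were higher for 9 and lower for 18, with a median log2 change of -0.05. The desaturase gene Scd1 had a mean log2 value of 11.52 in reverted and 11.06 in quiescent cells, a change of 0.46 (SE 0.11, adjusted p = 0.103). Agpat2, which makes phosphatidic acid, stood at -0.16 (adjusted p = 0.166), and Pck1, an enzyme of glyceroneogenesis that hepatocytes make in quantity, at 0.50 (adjusted p = 0.174). The groups did not overlap for Scd1, with reverted higher, and Agpat2, with reverted lower, as in 8.73% of all genes. Pck1 is also on the hepatocyte list, in which all 15 measured genes had a higher mean in reverted cells. In that list 1 gene, Hp, was called (0.80, adjusted p = 0.0373), against 0.712% of all genes. Of 26 measured PPAR-alpha and PPAR-delta targets, 0 were called and 5 had an unadjusted p under 0.05, against 16.0% of all genes. Their means were higher for 15, with a median of 0.04. Pex11a, a peroxisome division gene, had a change of 0.38 (SE 0.08, adjusted p = 0.088). The mitochondrial carnitine carrier gene Slc25a20 (0.22, adjusted p = 0.159) and the acyl-CoA dehydrogenase gene Acadvl (0.13, adjusted p = 0.285) came next. Pex11a and Acadvl had no overlap of the groups, with reverted higher, as had 4.64% of all genes.

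**Figure D4:**
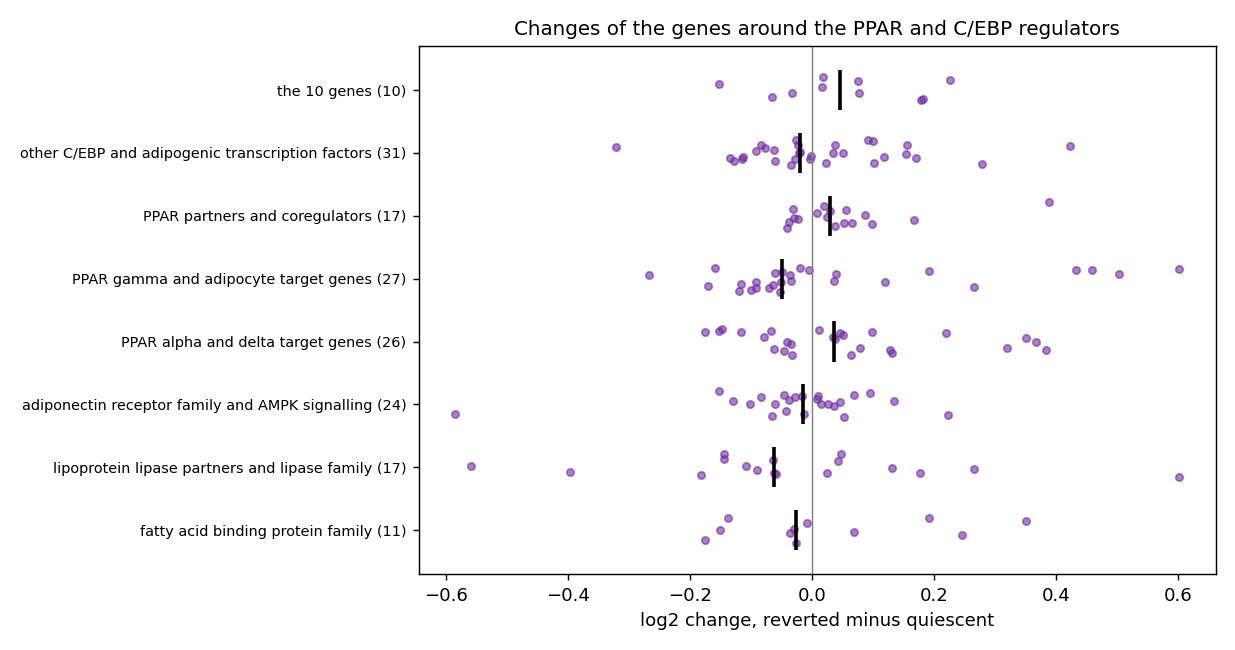
Log2 change (reverted minus quiescent) on the horizontal axis for the 10 genes and the members of 7 related lists, with the number measured in brackets. Points are genes, with a random vertical offset, and bars are medians, which lie between -0.06 (lipoprotein lipase partners) and 0.05 (the 10 genes).

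Of 24 measured genes of the adiponectin receptor family and AMPK signalling, 0 were called. An unadjusted p under 0.05 was found for 5, against 16.0% of all genes, and the median log2 change was -0.01. C1qtnf7, which encodes a secreted relative of adiponectin, had a mean log2 value of 8.57 in reverted and 9.16 in quiescent cells, a change of -0.58 (SE 0.11, adjusted p = 0.0567). The receptor family gene Paqr5 (-0.15, adjusted p = 0.208) and Cdh13, which encodes the adiponectin-binding T-cadherin (-0.10, adjusted p = 0.298), followed. The groups did not overlap in 1 gene with reverted higher and in 3 with reverted lower, C1qtnf7 and Paqr5 among the latter. Over all genes these shares were 4.64% and 4.09%. Adipoq, the gene of adiponectin itself, lay at percentile 12.1 with a change of 0.04 (adjusted p = 0.618).

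Of 17 measured partners and relatives of lipoprotein lipase, 0 were called and 4 had an unadjusted p under 0.05, against 16.0% of all genes. Their means were lower for 10, with a median of -0.06. Apoc1, an apolipoprotein that inhibits lipoprotein lipase, had a change of -0.56 (SE 0.12, adjusted p = 0.0948), the proprotein convertase gene Pcsk6 one of -0.40 (adjusted p = 0.144) and the lysosomal lipase gene Lipa one of -0.14 (adjusted p = 0.158). In each of these 3 genes all reverted arrays lay below all quiescent arrays, as they did for Lrp1 (-0.06, adjusted p = 0.419), named after its values were seen; 4.09% of all genes did so. Of 11 measured relatives of Fabp4, 0 were called and 3 had an unadjusted p under 0.05, against 16.0% of all genes. The 3 were Rbp2 (-0.15, adjusted p = 0.265), Fabp5 (0.19, adjusted p = 0.294) and Fabp3 (-0.18, adjusted p = 0.302).

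The median log2 value of the 8 arrays lay between 7.66 and 7.74. Of 15 measured stellate cell markers, Gfap fell (-0.49, adjusted p = 0.0182) and 14 did not pass, against 0.186% of all genes called lower. The median level of the 15 was percentile 99.7. All 15 had a lower mean in reverted cells, as did 10685 of all 19938 genes. The mean log2 value of the 15 ran from 13.24 to 13.29 in reverted and from 13.34 to 13.40 in quiescent arrays, without overlap. The falls were uneven, with a median log2 change of -0.05 and single genes from -0.49 for Gfap to -0.0004 for Lrat. In the other marker lists the median level was percentile 57.1 for hepatocytes, 49.7 for endothelium and 41.9 for fat cells. It was 39.6 for mesothelium and portal fibroblasts, 30 for macrophages and 13.6 for lymphocytes. The highest hepatocyte and endothelial markers, Alb and Clec4g, both stood at percentile 95.2. Of the 14 genes of the mesothelial and portal fibroblast list 2 rose, Wt1 (1.39, adjusted p = 0.00801) and Dpt (1.69, adjusted p = 0.0174), against 0.527% of all genes. A lower mean in reverted cells was found for 10 of the 14. The mean of these 14 ran from 7.96 to 8.15 in reverted and from 7.85 to 7.91 in quiescent arrays, also without overlap. The median log2 change of the 14 was -0.07, so the higher list mean rests on Wt1 and Dpt. No background was computed for the overlap of either list mean. The part of either list in the values of the 10 genes was not tested. Of 8 fat cell and 8 lymphocyte markers 0 were called. On the leading principal component quiescent array 4 lay at 0.21, nearer to the reverted arrays (-11.51 to -6.07) than the other quiescent arrays (8.79 to 13.98), and on the next one quiescent array 3 (11.45) and reverted array 1 (12.27) stood apart from the rest (-6.78 to -0.25). None of the 10 genes was called without any one of these arrays or without quiescent array 3 and reverted array 1 together.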

How the data were processed

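Expression was measured in 8 samples, 4 reverted and 4 quiescent. The authors' deposited values are log2 values made with RMA, per the submitters' processing notes; its version, settings and genome build are not given in the sources used here. All 35556 probe sets had values on all 8 arrays, with 0 missing. The number of arrays limits the precision.

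The platform annotation names 23410 probe sets, of which 21789 carry 1 gene symbol and 1621 several; no gene was named from the latter, and 12146 probe sets are unnamed here. The RefSeq gene table (GRCm38.p6, names only) held the Entrez identifiers of 21698 probe sets and changed 0 symbols. For 999 genes with several probe sets the one with the highest mean was used, giving 19938 genes without a filter on dim genes.

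The comparison used limma 3.58.1 (lmFit, eBayes) under R 4.3.3, with 2-sided tests and no covariate. Calls were made at 0.05 after Benjamini-Hochberg adjustment over all 19938 genes. The limma fit was also run on simulated data with independent normal noise, and the outcome is not given here. Tables and plots used Python 3.11.15, pandas 2.3.3 and matplotlib 3.10.9.

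Of 295 list entries, 272 had a probe set under that symbol. The members and lists were chosen with earlier results of these data known. Genes named are the 10 members, in each list those called and otherwise up to 3 with the smallest p, and the 2 genes most like each member among named genes above the median level. Adipoq and Lrp1, outside this rule, were named after their values were seen. Alternatives were quantile normalization, median centring, filters on the lowest 25% and lower 50% of genes, the mean of or all probe sets, array weights, a robust fit with an intensity trend, a replicate block, hepatocyte and immediate early gene means as covariates, leaving out each array, and an exact permutation test per member. Promoter windows came from RefSeq (GRCm38.p6).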

Additional observations from a re-analysis of the deposited data

How the results depend on the processing

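Of the 10 genes, 0 were called under any of 20 alternative fits across genes, and their lowest adjusted p was 0.0973, that of Adipor2 without quiescent array 4. The dim genes Fabp4 and Pparg were not tested where the lower 50% of genes were left out, and Fabp4 also not where the lowest 25% were. For 6 genes the direction held in every setting run. The level filters, the probe set settings, the robust fit, the replicate block and the permutation test leave each estimate unchanged. They therefore could not turn a sign. For Pparg, Cebpa, Cebpd and Fabp4 the sign turned in some of the other settings. With quantile normalization the log2 change was 0.0119 for Pparg and -0.0443 for Cebpa. With the immediate early gene covariate it was 0.0111 for Pparg, -0.0528 for Cebpa and -0.0449 for Cebpd, and with the hepatocyte covariate -0.0301 for Fabp4. Without quiescent array 3 and reverted array 1 together, chosen after seeing the data, it was -0.0373 for Cebpd. With single arrays left out the change ran from -0.0937 to 0.0160 for Pparg, from -0.0504 to 0.1065 for Cebpa, from -0.0415 to 0.0638 for Cebpd and, without a turn of sign, from 0.0143 to 0.144 for Fabp4. For Adipor2 (0.1790) the exact permutation p of 0.0286 and the p of limma, 0.00803, both unadjusted, were under 0.05; the adjusted p of limma was 0.17, and the permutation test has no adjusted value. The cause of these turns was not tested.

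Over all genes, 142 were called in the comparison as reported. The number was 219 after quantile normalization, 306 with array weights, 33 with the hepatocyte and 57 with the immediate early gene covariate, and 56 without quiescent array 3 and reverted array 1. Single arrays left out gave 54 to 247 calls. It was 59 without reverted array 3, 54 without reverted array 4, 73 without quiescent array 1 and 247 without quiescent array 4. With the replicate number as a block it was 63, with 0 of the 10 genes called. The labels give both groups numbers 1 to 4, but the deviations of same-numbered arrays correlated across genes at only -0.148 to 0.081, so the numbers were not taken to pair the samples.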

Other observations

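The reverted arrays of Cebpd differed by less than those of most genes, a feature chosen after its values were seen. The SD was 0.010 over the 4 reverted arrays and 0.133 over the 4 quiescent arrays, a ratio of quiescent to reverted SD of 13.7, and 0.0903% of all genes had a ratio at least as high. For Cebpb the SDs were 0.056 in reverted and 0.229 in quiescent arrays, a ratio of 4.06, reached by 3.68% of all genes. The quiescent SD was the larger one in 6 of the 10 genes and in 58.2% of all genes. With 4 arrays a group an SD is itself imprecise, and the difference in spread was not tested.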
